A study of Rattus norvegicus with 11 samples.

Results

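The genes described here are 37 genes of the response to low oxygen and of glycolysis, the path that splits glucose to pyruvate. They were chosen by symbol from knowledge of both pathways, with earlier results of these data known, and all 37 were present among the 18507 genes measured. By role, 3 encode subunits of the hypoxia-inducible factors (HIF) and 3 encode proteins that control HIF turnover. A further 23 encode glucose and lactate transporters, glycolytic enzymes and enzymes at the fate of pyruvate, and 8 are other HIF targets. Gene expression was measured by RNA sequencing of bladder tissues from female Sprague-Dawley rats under a year old. In the partial bladder outlet obstruction (PBOO) groups a suture tie was placed around the bladder neck and urethra, and the labels call these samples BOO. The study's methods describe sham controls that had the abdominal incision alone; the labels call the control samples normal, and the columns of those of week 5 carry the name adult, so that whether both control sets came from the same surgery is not known here. There were 3 normal and 3 PBOO samples at week 4, and 3 normal and 2 PBOO samples at week 5. Bladder wall holds urothelium, smooth muscle, stroma, vessels and nerves, so that each value is a mean over cell types. Which part of the wall was taken for a sample is not stated. By those methods the controls had neither tie nor catheter, and the animals behind the samples are not named, so the p-values below measure the spread between these samples, part of which may be technical.

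HIF is a pair of an oxygen-regulated alpha subunit, HIF-1α (Hif1a) or HIF-2α (Epas1), and the constant partner Arnt. When oxygen is present, prolyl hydroxylases (Egln1 and Egln3 here) mark the alpha subunits, and the Vhl protein directs their destruction, so the protein and not the transcript is the main point of control. HIF that escapes binds a short DNA core, ACGTG or GCGTG, and activates genes for glucose uptake, glycolysis, lactate export, acid handling and turnover of mitochondria. Many steps of glycolysis have several isozymes that differ between tissues: Hk1 and Hk2 phosphorylate glucose, Pfkl, Pfkm and Pfkp are the liver, muscle and platelet forms of phosphofructokinase, and Ldha and Ldhb favour lactate and pyruvate, respectively. In the obstructed bladder, the wall thickens and its blood flow can fall, which is why this pathway is studied there.

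The DNA core of HIF was searched in the RefSeq promoter windows (GRCr8, 300 bases, 250 before the start of the gene and 50 after it) of the members. A window was found for 33 of the 37 members and not for Slc2a3, Pgk1, Ndrg1 and Hmox1. The letters ACGTG on either strand occurred in 20 of the 33 (60.6%), against 20.9% of 27457 gene symbols with a window, and GCGTG in 16 (48.5%), against 32.4%. Either core occurred in 24 members (72.7%), against 44.6% of all symbols. The members were chosen from knowledge of this pathway, so these gaps are no test of control by HIF. The symbols were not matched to the members for base composition or expression. No match was found for Epas1, Egln3, Vhl, Slc16a3, Hk2, Tpi1, Pfkfb4, Pkm and Adm, and a match is a description of letters, not of a site in use. The 250 bases before the start are shown for 5 members with a match. These are the glucose transporter gene Slc2a1, which was higher in PBOO bladder tissues of both weeks, and Ldha, which was called at week 4 alone. The others are Pfkp, Eno2 and Bnip3, whose changes differed between weeks. The changes of Slc16a3 and Hk2, which have no match, differed between weeks too. The stretches lie at chr5:138002272-138002521 on the plus strand (Slc2a1), chr1:106507842-106508091 on the plus strand (Ldha), chr17:68639563-68639812 on the plus strand (Pfkp), chr4:159267221-159267470 on the minus strand (Eno2) and chr1:203154963-203155212 on the minus strand (Bnip3). Each is written 5′ to 3′ on the strand of its gene, with the cores, or their reverse complements CACGT and CACGC, in capitals.
Slc2a1: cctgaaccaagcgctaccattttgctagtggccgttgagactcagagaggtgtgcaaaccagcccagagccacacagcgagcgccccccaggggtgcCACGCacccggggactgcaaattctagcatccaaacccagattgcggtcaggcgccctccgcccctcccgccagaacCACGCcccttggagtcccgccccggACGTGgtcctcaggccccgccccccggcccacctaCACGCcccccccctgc
Ldha: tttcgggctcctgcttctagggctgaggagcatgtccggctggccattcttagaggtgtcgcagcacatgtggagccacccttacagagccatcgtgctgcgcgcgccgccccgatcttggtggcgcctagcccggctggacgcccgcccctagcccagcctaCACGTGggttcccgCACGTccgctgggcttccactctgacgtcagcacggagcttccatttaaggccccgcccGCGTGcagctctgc
Pfkp: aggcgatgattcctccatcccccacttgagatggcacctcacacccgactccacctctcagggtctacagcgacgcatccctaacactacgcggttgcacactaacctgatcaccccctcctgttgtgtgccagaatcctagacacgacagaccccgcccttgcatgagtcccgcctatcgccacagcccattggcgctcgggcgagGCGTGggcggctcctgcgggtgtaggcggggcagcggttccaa
Eno2: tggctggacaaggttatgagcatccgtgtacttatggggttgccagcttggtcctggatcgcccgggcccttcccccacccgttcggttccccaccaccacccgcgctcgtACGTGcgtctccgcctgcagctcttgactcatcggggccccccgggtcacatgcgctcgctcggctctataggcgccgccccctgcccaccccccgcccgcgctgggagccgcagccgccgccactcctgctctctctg
Bnip3: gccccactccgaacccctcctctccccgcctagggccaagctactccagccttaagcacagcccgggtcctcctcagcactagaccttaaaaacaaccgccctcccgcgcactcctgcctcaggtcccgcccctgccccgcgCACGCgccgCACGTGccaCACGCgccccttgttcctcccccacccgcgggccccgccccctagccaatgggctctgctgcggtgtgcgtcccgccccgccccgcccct
Bnip3 and Ldha each hold the palindrome CACGTG, which reads as ACGTG on both strands, with the plus strand core 98 bases before the start of Bnip3 and 86 bases before that of Ldha. Slc2a1 has ACGTG 51 bases before its start and 3 copies of GCGTG, all on the minus strand. Eno2 has ACGTG 139 bases before its start, and Pfkp has GCGTG alone, 43 bases before its start.

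The values are fragments per kilobase of exon scaled to the library total (FPKM), so they are per length and levels can be compared between genes. Their sum over all genes lay between 424961 and 564343 per sample, and the number of reads behind each value is unknown. The 10 genes of highest value took 9.35 to 9.73% of this sum in normal samples of week 4 and 13.7 to 20.1% in PBOO samples of week 4, against 7.72 to 10.4% at week 5. A gain of a few abundant transcripts lowers the FPKM of all others, and over all genes tested the median log2 fold change was -0.25 at week 4 and 0.12 at week 5. Markers of smooth muscle and urothelium were present in all normal samples, apart from the urothelial keratin Krt7, which is listed at 0 throughout week 4. The summed FPKM of 9 smooth muscle markers was 25710 to 27860 in normal and 51350 to 82640 in PBOO samples at week 4, and 25000 to 29410 in normal but 997 to 1866 in PBOO samples at week 5. At week 5 all 9 of these markers and all 6 fibroblast markers were lower in PBOO bladder tissues, and 9 of 10 leukocyte markers were higher, with summed FPKM of 35.7 to 88.8 in normal and 273.5 to 1149 in PBOO samples. Urothelial markers fell at week 4 in 9 of 10 tested, from a sum of 7260 to 9184 to one of 4559 to 5596, and at week 5 their sums were 8666 to 11320 and 11270 to 11750, while 5 of 11 were lower and 3 higher, with log2 fold changes from -6.47 to 3.52. The sum of 8 skeletal muscle markers, of which 2 were called higher and none lower at week 4, was 177.9 to 299.6 in normal and 362.6 to 3082 in PBOO samples of week 4. At week 5, where 4 of the 5 tested were lower and 1 was higher, it was 207.4 to 234.3 and 27.5 to 27.7. In such bulk tissue, fewer cells of a type, less RNA per cell and a different part of the wall taken cannot be told apart. The part of these shifts in the results below was not tested. Normal replicate 1 of week 4 stood apart from replicates 2 and 3, with summed leukocyte markers of 69.1 against 423.5 and 473.5, and red cell markers of 54.8 against 1068 and 1339.

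In normal bladder tissues, the enzymes of the glycolytic steps were the most abundant members. Gapdh ranked first in both weeks, at a mean FPKM of 1041 at week 4 and 608.3 at week 5, followed by Aldoa and Pkm in either order. The HIF subunits were less abundant, with mean FPKM of 48.6 (Hif1a), 27.4 (Epas1) and 23.5 (Arnt) in normal samples of week 4, and 31.2, 17.7 and 11.2 at week 5. The transporter genes Slc2a3 and Slc16a3, the regulators Pfkfb3 and Pfkfb4, and Adm, Ankrd37 and Hmox1 had mean levels under 10 FPKM in normal samples of both weeks. The 37 members together made up 0.692 to 1.22% of the summed FPKM of a sample. The plot of levels along glycolysis gives every sample at each step.

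**Figure D1:**
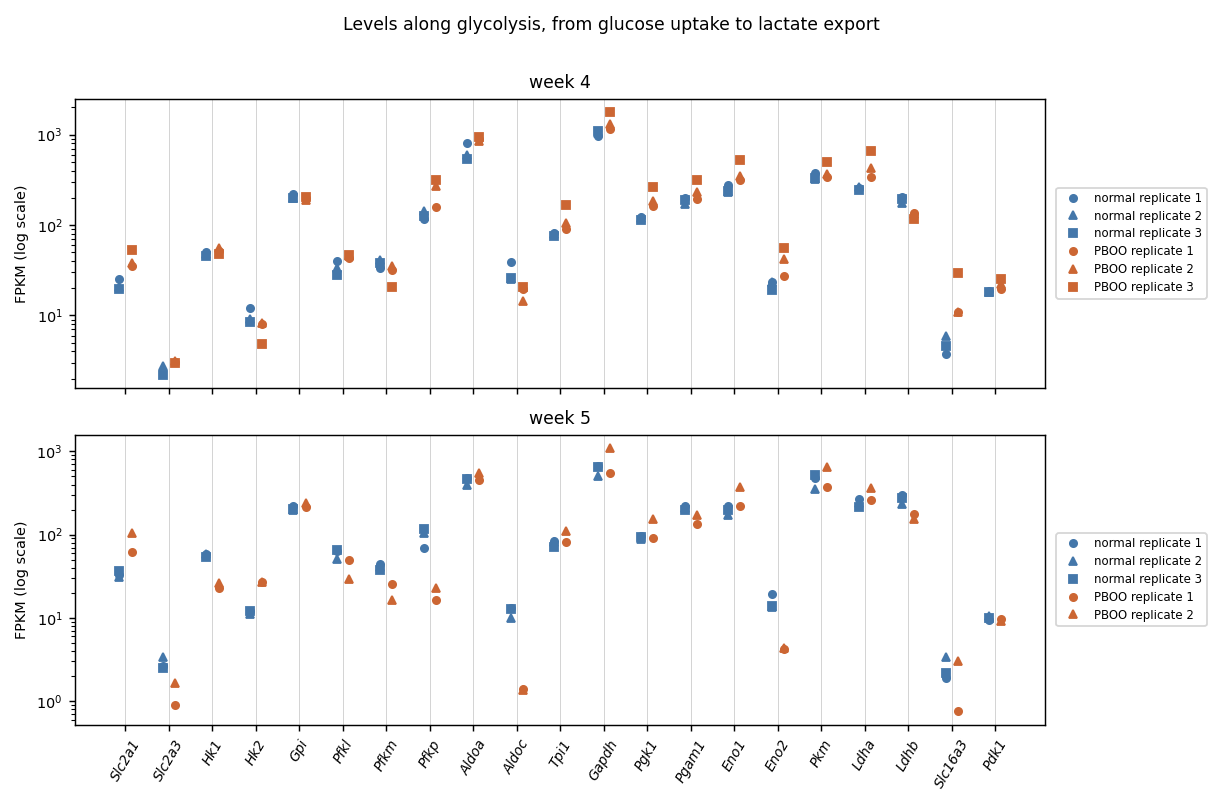
FPKM (log scale) of 21 transporters and enzymes, in order from glucose uptake to lactate export, in every sample; blue, normal; orange, PBOO; shapes, replicates; week 4 above and week 5 below. Slc2a3 of normal week 4 replicate 1 is listed at 0 and cannot be drawn on a log axis. At week 4 the PBOO points of Slc2a1, Pfkp, Pgk1, Eno1, Eno2, Ldha and Slc16a3 sit above all normal points, whereas at week 5 those of Hk1, Pfkp, Aldoc and Eno2 sit below and those of Hk2 and Slc2a1 above.

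To see whether obstruction changed these genes at week 4, PBOO and normal bladder tissues were compared for the 35 members that could be tested; Egln1 and Car9 are listed at 0 in all 6 samples of week 4, as are 4871 genes in all. PBOO bladder tissues of week 4 had 11 upregulated and 4 downregulated members (unadjusted p under 0.05), against 5.76% and 26.2% of all 11320 genes tested. Of these, 10 of the upregulated genes belong to transport and glycolysis (23 tested) and 1 is another HIF target (7 tested), while 1 of the 5 tested genes of HIF subunits and turnover was called, downregulated. The members' median log2 fold change was 0.28, beside -0.25 for all genes. No member passed after Benjamini-Hochberg adjustment (lowest adjusted p = 0.0538), a level that 0.512% of all genes passed, and 1 member, Slc16a3, was called at 2-fold or more, against 2.46% of genes higher at that size. All 3 PBOO samples lay above all 3 normal samples for 14 members and below them for 5, against 6.63% and 34.9% of all genes. When samples were scaled by median ratios, which brings the median of all genes to -0.01, 18 members were higher and 3 lower, against 11.7% and 9.09% of all genes, so that the number of calls depends on the scaling. The genes that this scaling added to those called higher were Hif1a, Hk1, Gapdh, Pgam1, Pdk1, Bnip3 and P4ha1. Leaving out PBOO replicate 1 gave 15 members called higher, with Gapdh, Pgam1, Pdk1 and Bnip3 added.

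**Figure D2:**
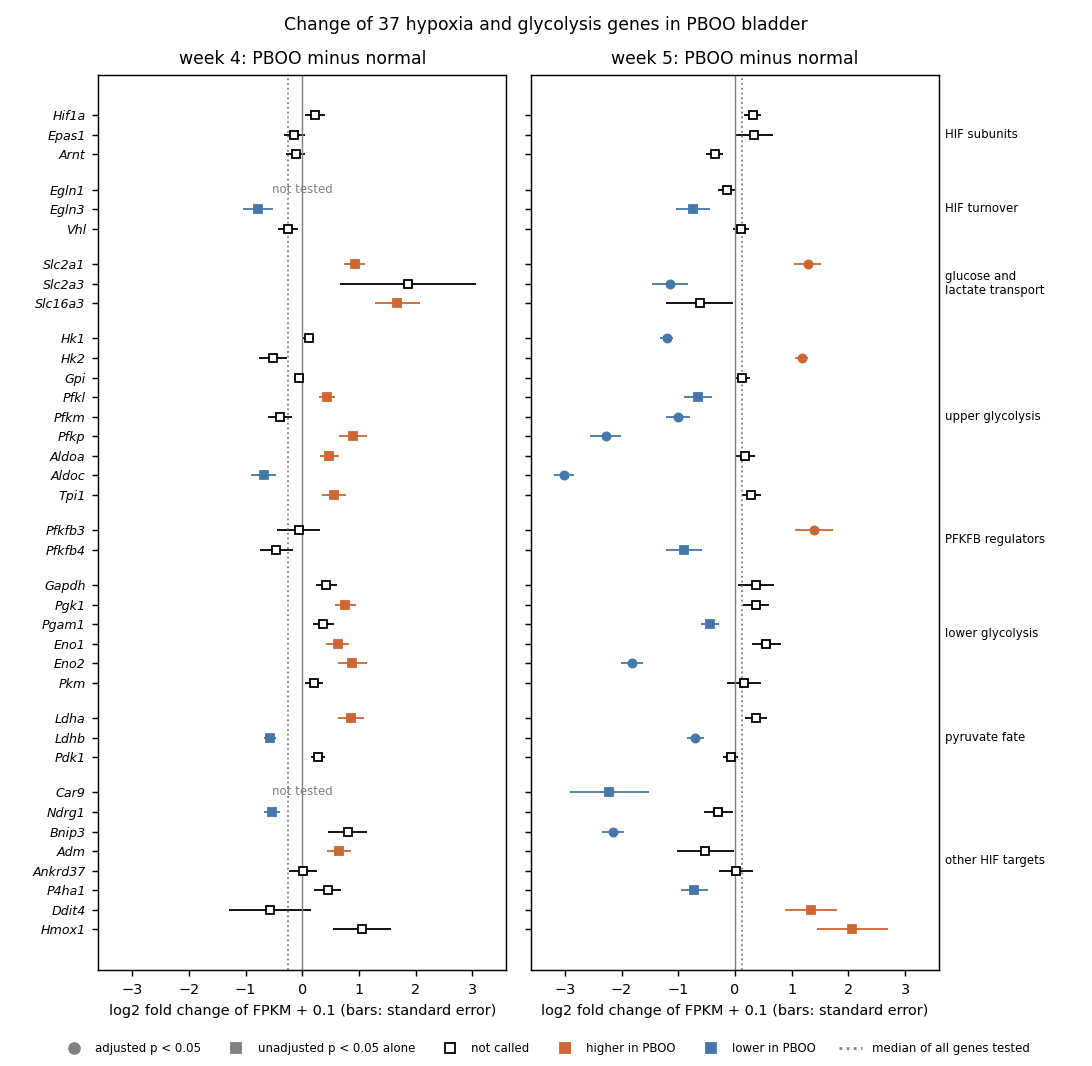
Log2 fold change (FPKM + 0.1) of the 37 members, PBOO minus normal, at week 4 (left) and week 5 (right), with standard errors as bars. Orange and blue mark higher and lower calls at unadjusted p under 0.05, circles those with adjusted p under 0.05, open squares members not called, and the dotted line the median of all genes tested. Most called glycolytic enzymes lie to the right at week 4 and to the left at week 5, with Slc2a1 to the right in both.

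None of the HIF subunits was called at week 4. Hif1a was at 58.7, 43.3 and 43.8 FPKM in normal and 58.6, 66.4 and 45.8 in PBOO samples (log2 fold change 0.23 ± 0.18, where ± is the standard error of the limma fit throughout). Epas1 was at 27.2, 25.2 and 29.8 FPKM in normal and 30.7, 25.7 and 19.4 in PBOO samples. Arnt was at 21.0, 26.1 and 23.6 FPKM in normal and 25.2, 23.2 and 17.3 in PBOO samples. The groups overlapped for all 3 subunits, and after median-ratio scaling Hif1a was called higher (log2 fold change 0.48, unadjusted p = 0.0206, limma) while the small changes of Epas1 and Arnt turned from -0.14 to 0.11 and from -0.12 to 0.13, uncalled. The prolyl hydroxylase gene Egln3, itself a HIF target, was downregulated, from 19.4 to 26.5 FPKM in normal to 9.29 to 18.9 in PBOO samples (log2 fold change -0.78 ± 0.26, adjusted p = 0.107), though its call was lost without normal replicate 2 or PBOO replicate 2 (unadjusted p up to 0.0662). Vhl stood at 12.9 to 15.6 FPKM in normal and 9.86 to 14.8 in PBOO samples and was not called, except without PBOO replicate 1 (log2 fold change -0.40).

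Among the called members, the transporter genes Slc16a3 and Slc2a1 had the largest log2 fold changes of week 4. Slc16a3 encodes MCT4, the lactate exporter of glycolytic cells. Its FPKM was 3.77, 5.95 and 4.61 in normal and 10.97, 10.93 and 29.2 in PBOO samples, 3.19-fold higher (log2 fold change 1.67 ± 0.40, adjusted p = 0.069). PBOO replicate 3 was far above the other PBOO samples, but even the lowest PBOO sample exceeded the highest normal sample. Slc2a1 encodes GLUT1, the basal glucose importer, and stood at 25.2, 20.9 and 19.4 FPKM in normal and 34.9, 37.9 and 53.1 in PBOO samples, 1.90-fold higher (log2 fold change 0.92 ± 0.19, adjusted p = 0.0551). Slc2a3 encodes GLUT3, a high-affinity glucose importer; it is listed at 0 in normal replicate 1 and stood at 2.74 and 2.20 FPKM in normal replicates 2 and 3, against 3.05, 3.17 and 2.96 for PBOO, without a call; its log2 fold change of 1.86 was 0.31 without normal replicate 1.

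Among the enzymes of the steps from hexokinase to pyruvate kinase, 7 of 15 were upregulated and 1 was downregulated at week 4, against 5.76% and 26.2% of all genes; after median-ratio scaling 10 were higher and none lower, against 11.7% and 9.09%. Pfkp, the platelet phosphofructokinase, stood at 117.8, 142.2 and 124.6 FPKM in normal and 158.6, 271.9 and 311.9 in PBOO samples (log2 fold change 0.90 ± 0.25, adjusted p = 0.0817). Eno2, the neuronal enolase, stood at 23.4, 23.3 and 19.1 FPKM in normal and 27.4, 42.3 and 56.5 in PBOO samples (log2 fold change 0.88 ± 0.26, adjusted p = 0.0867). Both genes had their lowest PBOO value in replicate 1, and no PBOO sample fell into the normal range. Pgk1, the first step that yields ATP, rose from 113.7 to 123.0 FPKM to 163.3 to 267.0 (log2 fold change 0.75 ± 0.18, adjusted p = 0.0711). Pfkl, the liver phosphofructokinase, stood at 39.7, 33.7 and 27.7 FPKM in normal and 42.7, 46.0 and 46.2 in PBOO samples, with a log2 fold change of 0.43. Eno1, Tpi1 and Aldoa were upregulated with log2 fold changes of 0.63, 0.56 and 0.48 and adjusted p of 0.102 to 0.136. The calls of Pfkl, Eno1, Tpi1 and Aldoa were each lost when any of 2 to 4 single samples was left out: for Pfkl, normal replicate 3 or PBOO replicate 2 (unadjusted p up to 0.0677); for Eno1, normal replicate 2 or 3 (up to 0.054); for Tpi1, any normal sample (up to 0.0892); and for Aldoa, normal replicate 2 or 3 or PBOO replicate 2 or 3 (up to 0.107).

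At those steps with several isozymes among the members, the ones not called higher were Aldoc, Hk1, Hk2 and Pfkm. Aldoc, the brain aldolase, was at 38.9, 25.1 and 25.7 FPKM in normal and 19.7, 14.6 and 20.9 in PBOO samples (log2 fold change -0.68 ± 0.22, adjusted p = 0.0993). Its call was lost without PBOO replicate 2 (unadjusted p = 0.0564) and after median-ratio scaling (unadjusted p = 0.118). Hk1 was at 50.1, 47.9 and 45.7 FPKM in normal and 51.5, 56.2 and 47.7 in PBOO samples, and Hk2, the inducible hexokinase, at 12.2, 9.10 and 8.56 FPKM and at 8.10, 8.23 and 4.84. Pfkm was at 33.9, 41.4 and 38.1 FPKM in normal and 31.8, 35.7 and 20.9 in PBOO samples. Hk1, Hk2 and Pfkm were not called, nor were Gpi, Gapdh, Pgam1 and Pkm. After median-ratio scaling Hk1 was called higher (log2 fold change 0.36, unadjusted p = 0.00769, limma), as were Gapdh and Pgam1. Pgam1 was at 199.0, 172.1 and 189.6 FPKM in normal and 193.5, 230.3 and 314.5 in PBOO samples, with overlapping groups. Pfkfb3 and Pfkfb4, which make the activator of phosphofructokinase, were not called: Pfkfb3 was at 3.08, 8.87 and 7.38 FPKM in normal and 5.35, 5.45 and 6.05 in PBOO samples, its lowest normal value being that of replicate 1. Without that sample Pfkfb3 was called lower (log2 fold change -0.52), and without PBOO replicate 2 Pfkm was called lower (-0.55).

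At the fate of pyruvate, both lactate dehydrogenases were called at week 4, in opposite directions. Ldha was at 242.3 to 262.9 FPKM in normal and 342.7 to 666.1 in PBOO samples, 1.81-fold higher (log2 fold change 0.86 ± 0.23, adjusted p = 0.0791). Ldhb was at 175.9 to 206.4 FPKM in normal and 117.2 to 135.3 in PBOO samples (log2 fold change -0.57 ± 0.11, adjusted p = 0.0538). Pdk1, a kinase that inhibits pyruvate dehydrogenase, was at 18.1 to 18.9 FPKM in normal and 19.8 to 25.5 FPKM in PBOO samples and was not called. For Slc2a1, Slc16a3, Pfkp, Pgk1, Eno1, Eno2, Ldha, Tpi1 and Bnip3 the highest value of week 4 was that of PBOO replicate 3, which also had the highest sums of smooth muscle markers (82640) and of skeletal muscle markers (3082, against 362.6 and 976.4 in the other PBOO samples); without that sample 10 members were called higher.

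The other HIF targets divided at week 4. Adm, the vasodilator adrenomedullin, was upregulated from 8.02 to 9.79 FPKM to 11.7 to 19.2 FPKM (log2 fold change 0.64 ± 0.21, adjusted p = 0.104; unadjusted p = 0.0532 without normal replicate 1, limma). Ndrg1, a stress gene that low oxygen induces, was downregulated from 81.5 to 95.4 FPKM to 51.9 to 70.2 FPKM (log2 fold change -0.54 ± 0.14, adjusted p = 0.0759). Bnip3, which marks mitochondria for removal, was at 27.8, 43.2 and 36.5 FPKM in normal and 38.4, 59.6 and 100.7 in PBOO samples, without a call (unadjusted p = 0.0536, limma). P4ha1, a collagen prolyl hydroxylase, was at 31.5, 54.9 and 42.2 FPKM in normal and 48.6, 53.1 and 71.2 in PBOO samples. Ddit4, an inhibitor of mTORC1, was at 5.89, 35.6 and 37.5 FPKM in normal and 22.0, 10.7 and 10.2 in PBOO samples, and heme oxygenase Hmox1 at 2.97, 9.49 and 11.2 FPKM and at 9.73, 15.2 and 19.7. Bnip3 was called higher without normal replicate 2 or PBOO replicate 1, P4ha1 without normal replicate 2 and Hmox1 without normal replicate 3. P4ha1, Ddit4, Hmox1 and Ankrd37 were not called over all samples, and normal replicate 1 was the lowest sample for Ddit4, Hmox1, Bnip3 and P4ha1. Without that sample the log2 fold change of Ddit4 was -1.44 in place of -0.57, with an unadjusted p under 0.05, and that of Hmox1 was 0.47 in place of 1.06, uncalled.

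At week 5 all 37 members could be tested, and the balance of directions was the other way. PBOO bladder tissues of week 5 had 5 upregulated and 14 downregulated members (unadjusted p under 0.05), against 24.6% and 18.8% of all 13685 genes tested. After adjustment 3 were higher and 8 lower, against 15.5% and 14.5% of all genes, and at 2-fold or more 5 were higher and 8 lower, against 9.82% and 12.6%. Both PBOO samples lay above all 3 normal samples for 6 members and below them for 14, against 35.3% and 25% of all genes. The members' median log2 fold change was -0.14, beside 0.12 for all genes. By class, 3 members of transport and glycolysis were higher and 10 lower of 23, 2 other HIF targets were higher and 3 lower of 8, and 1 of 6 genes of HIF subunits and turnover was lower. With 2 PBOO samples, single samples moved these counts: without PBOO replicate 1, 11 members were called higher, Hif1a, Tpi1, Gapdh, Pgk1, Eno1 and Ldha joining, and without normal replicate 1, 9 were called lower. The PBOO sample left in the first case was assumed to vary as the normal samples did.

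The HIF subunits were again not called. Hif1a was at 30.0, 33.4 and 30.1 FPKM in normal and 33.8 and 44.1 in PBOO samples of week 5, above all normal samples (log2 fold change 0.31 ± 0.15, adjusted p = 0.177). Epas1 was at 12.4, 23.1 and 17.5 FPKM in normal and 28.1 and 16.6 in PBOO samples, with overlapping groups. Arnt was at 11.1, 12.3 and 10.1 FPKM in normal and 9.32 and 8.09 in PBOO samples, below all normal samples (log2 fold change -0.36 ± 0.15, adjusted p = 0.131), and it was called lower after median-ratio scaling (unadjusted p = 0.0228, limma). Without PBOO replicate 1, Hif1a was called higher (log2 fold change 0.50) and Arnt lower (-0.46). Of the turnover genes, Egln1 was at 11.7 to 12.7 FPKM in normal and 9.69 to 12.5 in PBOO samples, called lower only without PBOO replicate 1 (log2 fold change -0.32), and Vhl at 14.7 to 17.2 and 15.6 to 18.5. Egln3 was called lower, from 13.4 to 22.3 FPKM to 9.08 to 13.7, although the groups overlapped (log2 fold change -0.74 ± 0.30, adjusted p = 0.114) and the call was lost without normal replicate 1, normal replicate 3 or PBOO replicate 2 (unadjusted p up to 0.247).

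The gene of GLUT1 was again upregulated. Slc2a1 was at 32.8, 30.6 and 36.3 FPKM in normal and 62.2 and 104.7 in PBOO samples of week 5, 2.43-fold higher (log2 fold change 1.28 ± 0.24, adjusted p = 0.0129). Slc2a3 was at 2.65, 3.37 and 2.50 FPKM in normal and 0.892 and 1.65 in PBOO samples (log2 fold change -1.15 ± 0.32, adjusted p = 0.045), a call lost when both weeks shared 1 estimate of the spread (unadjusted p = 0.332, limma). Both transporters separated the groups, in opposite directions. Slc16a3 was at 1.88, 3.40 and 2.17 FPKM in normal and 0.753 and 2.998 in PBOO samples, so that the PBOO samples lay on either side of 2 of the 3 normal samples, and it was not called, except as lower without PBOO replicate 2 (log2 fold change -1.55); without PBOO replicate 1 its direction turned (0.31, uncalled).

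The hexokinases moved in opposite directions at week 5. Hk2 was at 12.3, 11.2 and 12.1 FPKM in normal and 26.8 and 27.0 in PBOO samples, 2.26-fold higher (log2 fold change 1.18 ± 0.12, adjusted p = 0.00184). Hk1 was at 58.2, 58.0 and 54.2 FPKM in normal and 22.8 and 26.4 in PBOO samples, 2.31-fold lower (log2 fold change -1.21 ± 0.12, adjusted p = 0.00191). The samples of each group lay close together for both genes, and neither call was lost under any alternative tried.

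All 3 phosphofructokinase genes were downregulated at week 5. Pfkp was at 69.0, 104.6 and 117.8 FPKM in normal and 16.6 and 22.6 in PBOO samples, 4.87-fold lower (log2 fold change -2.28 ± 0.27, adjusted p = 0.0032). Pfkm was at 43.9, 41.0 and 37.9 FPKM in normal and 25.3 and 16.2 in PBOO samples (log2 fold change -1.01 ± 0.21, adjusted p = 0.0184). Pfkl was at 63.8, 51.6 and 66.3 FPKM in normal and 49.1 and 29.5 in PBOO samples (log2 fold change -0.66 ± 0.25, adjusted p = 0.0963), and its call was lost without normal replicate 1, normal replicate 3 or PBOO replicate 2 (unadjusted p up to 0.156). For the enzymes that set the activator of this step, Pfkfb3 was at 2.28, 2.59 and 2.43 FPKM in normal and 4.503 and 9.497 in PBOO samples (log2 fold change 1.39 ± 0.33, adjusted p = 0.0282). Pfkfb4 was downregulated from 2.99 to 4.66 FPKM to 1.59 to 2.64 FPKM (log2 fold change -0.90 ± 0.31, adjusted p = 0.0786), a call lost without normal replicate 1, normal replicate 2 or PBOO replicate 1 (unadjusted p up to 0.149).

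Aldoc and Eno2, the brain forms of aldolase and enolase, fell most among the enzymes after the phosphofructokinase step. Aldoc was at 13.15, 10.003 and 12.97 FPKM in normal and 1.40 and 1.37 in PBOO samples, 8.10-fold lower (log2 fold change -3.02 ± 0.18, adjusted p = 0.000437). Eno2 was at 19.2, 13.4 and 13.96 FPKM in normal and 4.27 and 4.30 in PBOO samples, 3.52-fold lower (log2 fold change -1.81 ± 0.19, adjusted p = 0.00235). The PBOO samples of both genes were nearly equal and far below the normal range. Of 5 nerve and glia markers, 3 were called lower and none higher at week 5, with sums of 768.2 to 824.4 FPKM in normal and 726.8 to 1316 in PBOO samples. At week 4, where Eno2 was higher, 3 were also lower, with sums of 1017 to 1432 and 620.4 to 924.8. Their part in the changes of Aldoc and Eno2 was not tested. Pgam1 was at 218.0, 209.2 and 198.3 FPKM in normal and 134.8 and 174.0 in PBOO samples (log2 fold change -0.44 ± 0.15, adjusted p = 0.0785), and its call was lost without any of the normal samples or without PBOO replicate 1 (unadjusted p up to 0.102). The abundant isozymes Aldoa and Eno1 were not called, nor were Gpi, Tpi1, Gapdh, Pgk1 and Pkm. Gapdh was at 504.9 to 665.3 FPKM in normal samples, with 554.2 in PBOO replicate 1 and 1089 in PBOO replicate 2. The same held for Aldoa, Tpi1, Pgk1, Eno1, Pkm and Ldha, where PBOO replicate 2 lay above all normal samples and PBOO replicate 1 did not. PBOO replicate 2 also had the higher sum of leukocyte markers, 1149 against 273.5, and of red cell markers, 1038 against 339.5.

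Of the lactate dehydrogenases, Ldhb was at 235.2 to 297.3 FPKM in normal and 153.4 to 177.5 in PBOO samples of week 5 (log2 fold change -0.70 ± 0.16, adjusted p = 0.0234). Ldha was at 213.1 to 265.5 FPKM in normal and 260.4 and 362.1 in PBOO samples and was not called. Pdk1 was at 9.41 to 10.6 FPKM in normal and 9.19 to 9.79 in PBOO samples and was not called.

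The other HIF targets included both the largest rise and some of the largest falls of week 5. Hmox1, which degrades heme, was at 4.40, 4.44 and 4.18 FPKM in normal and 8.41 and 40.7 in PBOO samples (log2 fold change 2.07 ± 0.63, adjusted p = 0.0564). Its size rested on PBOO replicate 2: the log2 fold change was 0.94 without that sample and 3.20 without PBOO replicate 1, with the call kept in each case. Ddit4 was at 3.605, 5.985 and 4.765 FPKM in normal and 7.22 and 20.1 in PBOO samples (log2 fold change 1.34 ± 0.46, adjusted p = 0.0779; unadjusted p = 0.1 with 1 estimate of the spread over both weeks, limma). Without PBOO replicate 2 the log2 fold change of Ddit4 was 0.61 and without PBOO replicate 1 it was 2.08, and its call was lost without PBOO replicate 2, normal replicate 1 or normal replicate 3 (unadjusted p up to 0.112).

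Bnip3 was at 28.1, 28.2 and 20.1 FPKM in normal and 6.01 and 5.21 in PBOO samples of week 5, 4.44-fold lower (log2 fold change -2.15 ± 0.20, adjusted p = 0.00145). Car9, a carbonic anhydrase of the cell surface and a frequently used marker of low oxygen, was at 2.27, 6.96 and 1.38 FPKM in normal and 0.391 and 0.700 in PBOO samples (log2 fold change -2.22 ± 0.69, adjusted p = 0.0615). Normal replicate 2 had by far the highest Car9 value; without it the log2 fold change was -1.58, and without PBOO replicate 1 the call was lost (unadjusted p = 0.119, limma). P4ha1 was at 19.7, 18.2 and 19.5 FPKM in normal and 15.1 and 8.81 in PBOO samples (log2 fold change -0.72 ± 0.24, adjusted p = 0.0723), and its call was lost without any 1 of the normal samples (unadjusted p up to 0.0689). Ndrg1, Adm and Ankrd37 were not called, with overlapping groups; Ndrg1 was called lower without normal replicate 2 (log2 fold change -0.54).

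**Figure D3:**
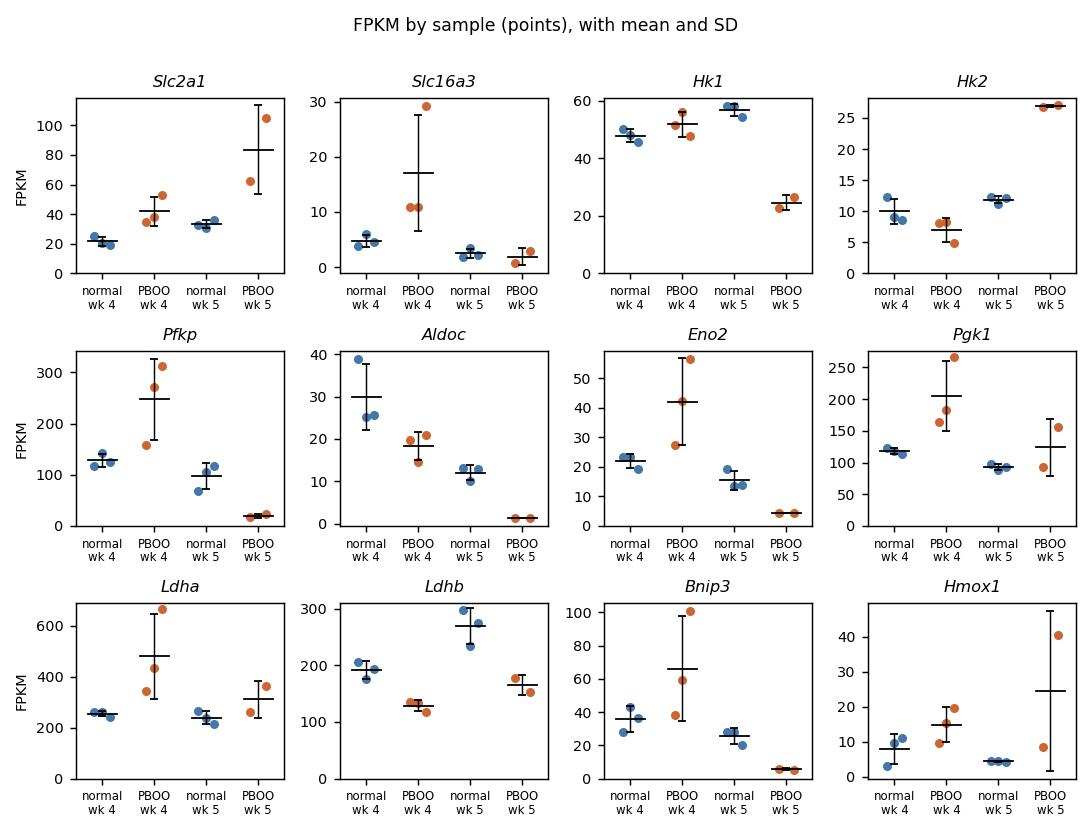
FPKM of 12 members in every sample (points) of the 4 groups, with the mean (horizontal line) and the SD (bars); blue, normal; orange, PBOO. Slc2a1 is above the normal samples in both weeks, and Pfkp, Eno2 and Bnip3 have their highest values in PBOO samples of week 4 and their lowest in PBOO samples of week 5.

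The falls of week 5 stood beside the loss of smooth muscle marker transcripts described above, whose summed FPKM was 19.0-fold lower in PBOO than in normal samples, and of fibroblast markers, 12.1-fold lower. At week 4, where glycolytic enzymes were higher, the same smooth muscle sum was 2.47-fold higher in PBOO samples. Whether the changes of the members followed those of muscle was not tested. Beside these sums, Aldoc was 8.10-fold and Pfkp 4.87-fold lower at week 5, and the abundant enzyme genes Gapdh, Aldoa, Eno1 and Pkm were not called.

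To compare the response at both times, the difference between the changes of week 5 and week 4 was tested over all 11 samples. Of 35 members, 10 differed (adjusted p under 0.05), a smaller share than the 40% of all 11296 genes tested. Of these, 9 had a lower change at week 5 (13.5% of genes) and 1 a higher one (26.5%). The median difference was 0.35 over all genes and -0.27 over the members. After median-ratio scaling the median of all genes was 0.07. With that scaling 11 members had a lower and 1 a higher change, against 1955 and 1827 of the 11296 genes. The lower ones were Pfkp, Bnip3, Eno2, Aldoc, Slc16a3, Hk1, P4ha1, Pfkl and Pgam1, and the higher one was Hk2. Pfkp had the largest difference, -3.18 ± 0.40 on the log2 scale (adjusted p = 0.000289), going from 1.86-fold higher at week 4 to 4.87-fold lower at week 5. The difference of Slc16a3 moved from -2.30 to -1.37 without PBOO replicate 1 of week 5 and to -3.23 without replicate 2. Hk2 went the other way by 1.69 ± 0.31 (adjusted p = 0.00254). None of the HIF subunits and turnover genes tested differed between weeks (lowest adjusted p = 0.247), nor did Slc2a1 (0.36 ± 0.32, adjusted p = 0.388), Ldha (-0.49 ± 0.33, adjusted p = 0.257) or Ldhb (-0.13 ± 0.18, adjusted p = 0.611). The column names of week 4 carry the word Input and those of week 5 do not, and 4871 genes were at 0 throughout week 4 and 403 throughout week 5. Whether the weeks were separate sets of libraries is not stated, and the week and any such set cannot be told apart.

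Shares of isozymes within a sample do not depend on how samples are scaled, and they were computed for 7 families over the members alone, leaving out isozymes that are no members. The shares were described by sample and not tested. Ldha made up 55.7 to 59.9% of the lactate dehydrogenase FPKM in normal and 71.7 to 85% in PBOO samples of week 4, and 43.7 to 50.2% and 59.5 to 70.2% at week 5. The Ldha share was thus higher in every PBOO sample than in every normal sample of its week. Hk2 made up 15.8 to 19.6% of the hexokinase FPKM (Hk1 and Hk2) in normal and 9.21 to 13.6% in PBOO samples of week 4, but 16.1 to 18.3% and 50.6 to 54% at week 5. The Hk2 share was thus lower in every PBOO sample than in every normal sample of week 4, where neither gene was called in the main fit. At week 5 it was higher in every PBOO sample. The summed FPKM of the pair was 54.3 to 62.3 in normal and 52.5 to 64.4 in PBOO samples of week 4, and 66.3 to 70.4 and 49.6 to 53.4 at week 5.

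Pfkp made up 61.6 to 65.4% of the phosphofructokinase FPKM in normal and 68.1 to 82.3% in PBOO samples of week 4, and 39 to 53.1% and 18.2 to 33.1% at week 5. The share of Pfkl at week 5 was 26.2 to 36.1% in normal and 43.1 to 54% in PBOO samples, although the FPKM of Pfkl itself was lower there. Aldoc was a minor isozyme, at 4.02 to 4.56% of aldolase FPKM in normal and 1.68 to 2.19% in PBOO samples of week 4, and 2.5 to 2.69% and 0.247 to 0.307% at week 5. Within the pair Eno1 and Eno2, Eno2 made up 6.58 to 7.99% in normal and 1.13 to 1.91% in PBOO samples of week 5, with overlapping shares at week 4. The muscle enolase Eno3, which is no member and is not in this share, was at 14.1 to 30.6 FPKM in normal and 7.18 to 8.82 in PBOO samples of week 5. The share of Epas1 beside Hif1a overlapped between groups in both weeks, at 27.9 to 40.5% over the samples of week 4 and 27.3 to 45.3% over those of week 5.

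**Figure D4:**
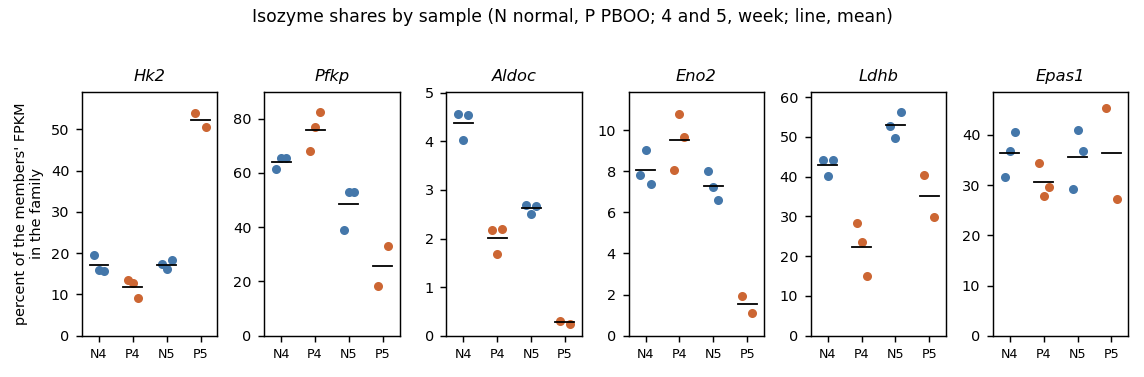
Percent contributed by 1 isozyme to the FPKM of the members of its family in each sample (points; line, mean), for normal (N, blue) and PBOO (P, orange) samples of weeks 4 and 5. Hk2 goes from 16.1 to 18.3% in normal to 50.6 to 54% in PBOO samples of week 5, Ldhb is lower in PBOO samples of both weeks, and Epas1 overlaps in both.

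The other genes of these pathways were read from a list of 54, of which 53 were in the table. At week 4, 45 of them were tested, 9 were called higher and 12 lower, against 5.76% and 26.2% of all genes, with a median log2 fold change of -0.09. That is a share of lower calls near that of all genes. Those called at 2-fold or more upward were the secreted glycoprotein gene Stc2, at 0, 0 and 0.06 FPKM in normal and 0.40, 0.54 and 2.55 in PBOO samples, the muscle enolase Eno3 (log2 fold change 1.51 ± 0.28, adjusted p = 0.0538) and the collagen lysyl hydroxylase Plod2 (1.45 ± 0.26, adjusted p = 0.0538). Downward they were Hif3a, an alpha subunit that can oppose HIF-1 (-1.84 ± 0.63), Gpd1 (-1.67), Angptl4 (-1.19) and Pck1 (-1.18), with adjusted p of 0.0718 to 0.111. Hif3a was at 0.462, 2.03 and 1.79 FPKM in normal and 0.512, 0.169 and 0.197 in PBOO samples, low values with overlapping groups. Angptl4 overlapped too, at 6.31 to 13.3 FPKM in normal and 2.65 to 6.65 in PBOO samples, whereas Gpd1 and Pck1 did not overlap. All 3 adipocyte markers were also lower at week 4, at a sum of 24.2 to 41.1 FPKM in normal and 8.50 to 15.8 in PBOO samples, and their part in these falls was not tested. No gene of the list passed after adjustment at week 4.

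At week 5, 44 genes of this list were tested, 10 were called higher and 11 lower (8 and 11 after adjustment), against 24.6% and 18.8% of all genes, with a median log2 fold change of -0.08. Vegfa, the vessel growth factor and a textbook HIF target, was at 69.7, 55.0 and 47.4 FPKM in normal and 187.2 and 362.2 in PBOO samples (log2 fold change 2.20 ± 0.32, adjusted p = 0.00585), whereas at week 4 it was at 23.9 to 27.2 and 18.2 to 34.2 FPKM and was not called. Angptl4, which restrains lipoprotein lipase, and the transcriptional repressor Bhlhe40 were also higher at week 5 (1.88 ± 0.19 and 1.56 ± 0.29), as was Hk3 (3.68 ± 0.96), a hexokinase of blood cells. The largest falls were those of muscle glycogen phosphorylase Pygm (-4.54 ± 0.19), the insulin-regulated glucose transporter Slc2a4 (-4.40 ± 0.19), the monocarboxylate transporters Slc16a7 (-3.10 ± 0.27) and Slc16a1 (-1.72 ± 0.49), and Plod2 (-2.04 ± 0.35), with adjusted p of 0.000229 to 0.0484. Hk3 was at 0.633 and 6.27 FPKM in PBOO replicates 1 and 2, whose sums of leukocyte markers were 273.5 and 1149. Pygm and Slc2a4 are muscle genes, and their falls of week 5 stood beside those of the summed smooth muscle and skeletal muscle markers. Whether these changes followed those of the cell types was not tested.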

How the data were processed

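RNA sequencing of rat bladder tissues gave 11 samples, with 3 normal and 3 PBOO at week 4, and 3 normal and 2 PBOO at week 5; the study had dropped 1 PBOO sample of week 5 at library quality control. The authors deposited 1 table of FPKM for 18507 genes, made per their methods from TruSeq libraries with SeqPrep, Sickle, HISAT2, StringTie and featureCounts. The submitters' processing notes name the mouse build mm10, but 15559 symbols are in the RefSeq rat table (GRCr8), 425 start with RGD and 0 end with Rik; neither the annotation nor the strandedness of counting is given in the sources used here. Reads could not be recovered from the values, so depth is unknown and no count test was run.

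The members, roles and lists were chosen with earlier results of these data known. log2(FPKM + 0.1) was compared with limma 3.58.1 in R 4.3.3 (lmFit, eBayes with a trend) for genes that averaged 0.5 FPKM or more over the samples compared, each week alone, and between weeks as an interaction over all samples on genes above 0 in each week. p-values are two-sided, and adjusted p-values are Benjamini-Hochberg over all genes tested. Fold changes on this scale understate those of low genes. A gene was called at unadjusted p under 0.05, and the difference between weeks at adjusted p under 0.05. With 3 against 3 or 3 against 2 samples an exact permutation test of a single gene cannot go below p = 0.1. The scripts were tested on simulated data. FPKM of every sample are given for the HIF subunits and for members called at 2-fold or more in either week or differing between weeks; up to 5 genes per direction and week are named from the further pathway list. Alternatives were another pseudocount (1 or 0.01), no filter or a mean of 2 FPKM, median-ratio, quantile or sum scaling, no trend, 1 fit over both weeks, the replicate number as a block, and leaving out each sample.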

Additional observations from a re-analysis of the deposited data

Results flagged for a closer look

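Of the 35 members tested, 10 changed differently in PBOO bladder tissues at week 5 than at week 4, by the limma test of the difference itself over all 11 samples (change at week 5 minus change at week 4, log2 scale, Benjamini-Hochberg adjusted p over 11296 genes). In upper glycolysis, the difference was -3.18 for Pfkp (adjusted p = 0.000289), -2.33 for Aldoc (0.000378), -1.32 for Hk1 (0.000168), -1.09 for Pfkl (0.0144) and 1.69 for Hk2 (0.00254). Lower in the path, it was -2.69 for Eno2 (adjusted p = 0.000424) and -0.81 for Pgam1 (0.0293), and for the lactate exporter gene Slc16a3 it was -2.30 (0.0343), or -1.37 without PBOO replicate 1 of week 5 and -3.23 without replicate 2. Of the other HIF targets, Bnip3 differed by -2.95 (adjusted p = 0.00104) and P4ha1 by -1.16 (0.0275). Pfkp, Eno2, Bnip3, Pfkl, P4ha1, Pgam1 and Hk1 had positive log2 fold changes at week 4 and negative ones at week 5, the sign of Slc16a3 at week 5 depended on the PBOO sample, Aldoc was negative in both, and Hk2 went from -0.51 to 1.18. Such differences were found for 40% of all genes tested, a larger share than among the members. Whether the weeks are also different sets of libraries is not stated. The calls of Slc16a3, P4ha1 and Pgam1 were lost when 1 of 6, 6 and 5 single samples, respectively, was left out (adjusted p up to 0.131, 0.114 and 0.0959). Groups of 2 or 3 samples are too small for a search for outlying samples.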

How the results depend on the processing

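No called member changed direction under any alternative. At week 4, 11 members were higher as reported, against 652 of all 11320 genes tested. After median-ratio scaling 18 were higher, against 1320 genes, and after quantile normalization 18, against 1192 genes. When columns were scaled to equal sums, 16 were higher. Between weeks, 12 members differed after median-ratio scaling or quantile normalization, with Pfkm and Pdk1 added. In 1 fit over both weeks, Hk2 was called lower and Bnip3 and Pdk1 higher at week 4, and calls were lost for Pfkl and Adm at week 4 and for Slc2a3 and Ddit4 at week 5. Leaving out 1 sample at a time gave 8 to 15 higher and 3 to 6 lower at week 4, 4 to 11 higher and 9 to 13 lower at week 5 (11 without PBOO replicate 1, 9 without normal replicate 1), and 7 to 11 members that differed between weeks. Calls kept under every alternative numbered 8 of 15 at week 4 (Slc2a1, Slc16a3, Pfkp, Eno2, Ldha, Ldhb, Pgk1 and Ndrg1), 11 of 19 at week 5 (Aldoc, Bnip3, Eno2, Hk1, Hk2, Hmox1, Ldhb, Pfkfb3, Pfkm, Pfkp and Slc2a1) and 7 of 10 between weeks (Aldoc, Bnip3, Eno2, Hk1, Hk2, Pfkl and Pfkp). With the replicate number as a block, the counts were 13 higher and 5 lower at week 4, 5 and 14 at week 5, and 10 between weeks. For sum scaling, blocks and samples left out, the shares of all genes are not given here. Those counts show only how the calls depend on the processing. Deviations of same-numbered normal and PBOO samples correlated at 0.154, -0.0241 and 0.232 at week 4, against -0.210 to 0.0939 for pairs of unlike number. Normal replicates 1 and 3 of week 4 correlated best with the PBOO sample of their number, and normal replicate 2 with PBOO replicate 3 (0.0939). At week 5 same-numbered pairs correlated at -0.000813 and 0.124. The deviations of 2 PBOO samples from their mean mirror each other, so these values cannot show a pairing. Whether same-numbered samples were paired is not known, and the main fits treat them as unpaired. Fits with 1 PBOO sample of week 5 assume that it varied as the normal samples did. The unknown depth limits what can be said of genes near 0 FPKM.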
